A study of Homo sapiens with 8 samples.

Results

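The RAB genes encode the Rab GTPases, the largest branch of the Ras superfamily of small GTPases. The genes were chosen by symbol alone, as RefSeq protein-coding genes whose symbol is RAB, a number and at most 1 letter, which gave 63 of the 20056 protein-coding genes of the table used. Genes of proteins that act on Rab GTPases, such as *RAB3GAP1* or *RAB11FIP1*, were not members. H3K27ac, acetylation of lysine 27 of histone H3, is a mark of active promoters and enhancers, and it was mapped by ChIP-sequencing in stable lines of MIA PaCa-2, an established human epithelial cell line of pancreatic carcinoma. MP2_HDAC1_OE carries an sgRNA that directs a CRISPR activator to *HDAC1*, a histone deacetylase gene, and MP2_NTC carries a non-targeting sgRNA. Both lines hold the same activator plasmids, lentiMPHv2 and lentiSAMv2, so that they differ by the sgRNA, and each condition is 1 stable line. Each line had 2 H3K27ac samples and 2 control samples, and the authors deposited 1 pooled list of peaks per line.

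Rab proteins are membrane switches. In the GTP-bound form each Rab sits on its own compartment and recruits effectors that bud, move, tether or fuse vesicles, exchange factors load the GTP, GTPase-activating proteins switch the Rab off, and GDI extracts the GDP-bound form from the membrane. Most cells use many Rabs at once, and paralogs of the same number often share a compartment. In epithelial cells Rabs set up apical and basolateral traffic and carry junction proteins and integrins.

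The MP2_HDAC1_OE list held 25045 peaks and the MP2_NTC list 22569, and peaks of the lists that shared 1 bp were merged into regions. A region was called shared where it held peaks of both lists and unique where all of its peaks came from 1 list. Of all regions, 9477 were shared, 5337 were unique to MP2_HDAC1_OE and 3864 were unique to MP2_NTC. A region was placed at a gene end where it touched a window that ran, on hg38, from 2 kb beyond an annotated end of the gene to 1 kb within it, and it was then taken whole. The strength of a peak is given as its rank, the percentage of peaks in its own list with a lower signal, because the scaling of the signal between the lists is not known. With 1 pooled list per line there was no spread between samples and no test, so that every difference between the lines below is a description of these lists. At *HDAC1* itself, the target of the activator, the strongest peak at an end ranked at 93.9 in MP2_HDAC1_OE and at 47.4 in MP2_NTC. These lay in different regions. The 1 shared region ranked at 93.9 and 40.4, and the peak at 47.4 lay in 1 of 2 regions unique to MP2_NTC. The keratin genes *KRT8* and *KRT18* and the mesenchymal genes *VIM* and *ZEB1* each had a shared region at an end. The keratin gene *KRT19* had 1 region unique to each list, at ranks of 42.8 in MP2_HDAC1_OE and 6.86 in MP2_NTC, and the epithelial genes *EPCAM* and *CDH1*, like the leukocyte gene *PTPRC*, had no region in either list.

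Most RAB genes carried H3K27ac at an end. Most of those carried it in both lines, as did most protein-coding genes with a region at an end. A region of either list lay at an end of 39 of the 63 genes (61.9%), against 48.5% of all protein-coding genes. A shared region was present at 31 RAB genes (49.2%), against 36.0% of all genes. A region unique to MP2_HDAC1_OE lay at 8 RAB genes (12.7%, against 12.1% of all genes) and one unique to MP2_NTC at 9 (14.3%, against 10.4%). Peaks of MP2_HDAC1_OE alone marked the ends of *RAB5A*, *RAB10* and *RAB31* (4.76%, against 6.17% of all genes), and peaks of MP2_NTC alone those of *RAB12*, *RAB37* and *RAB39A* (4.76%, against 5.06%). The shares of genes marked in only 1 line were thus near those of all genes, and the larger shares of RAB genes were those with any region and with a shared region. In addition, 10 RAB genes (15.9%) had a region inside the gene and away from both ends, against 13.5% of all genes. Of these 15 inside regions 7 were shared. Another 5 were unique to MP2_HDAC1_OE (*RAB5C*, *RAB11B*, *RAB13*, *RAB27B* and *RAB31*) and 3 to MP2_NTC (*RAB2A*, *RAB7A* and *RAB33A*).

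**Figure D1:**
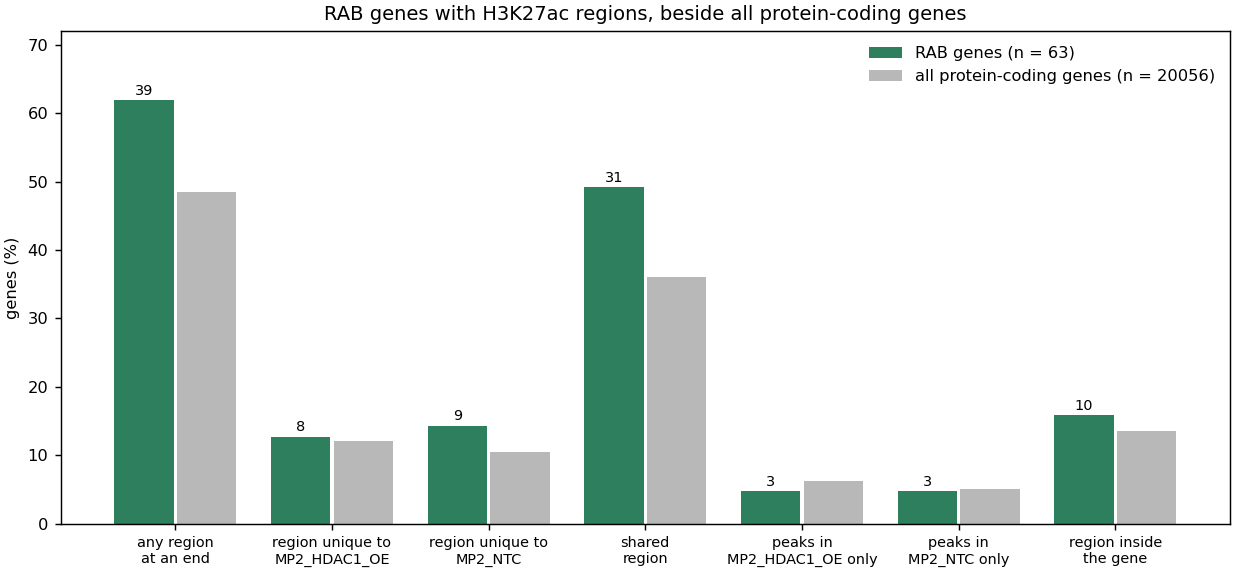
Percentage of the 63 RAB genes (green, number of genes above each bar) and of 20056 protein-coding genes (grey) with each kind of H3K27ac region. The green bars stand above the grey ones for any region (61.9% against 48.5%) and for shared regions (49.2% against 36.0%), and the bars of regions in only 1 list are of similar height.

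Of the 63 genes, 50 had a RefSeq promoter entry with a strand and a start site. These are 300-base windows from 250 bases before the start site to 50 bases after its first base, on GRCh38.p14, the patch release of the hg38 assembly. 6 of them are shown because the lists differed at or near them or, for *RAB27B*, because no peak lay there. Each is written 5′ to 3′ on the strand of the gene, and capitals mark matches to GGGCGG, the box of Sp factors, CACGTG, an E-box, or CCGGAAG, an ETS motif, read on either strand. The first 3 are those of the genes with peaks at an end in MP2_HDAC1_OE alone, followed by *RAB39A*, marked in MP2_NTC alone, *RAB11A*, whose rank differed most, and *RAB27B*. They lie at chr2:26033834-26034133 (*RAB10*), chr18:9708051-9708350 (*RAB31*), chr3:19946847-19947146 (*RAB5A*), chr11:107928198-107928497 (*RAB39A*), chr15:65869241-65869540 (*RAB11A*) and chr18:54717607-54717906 (*RAB27B*), and all 6 are on the plus strand.
RAB10: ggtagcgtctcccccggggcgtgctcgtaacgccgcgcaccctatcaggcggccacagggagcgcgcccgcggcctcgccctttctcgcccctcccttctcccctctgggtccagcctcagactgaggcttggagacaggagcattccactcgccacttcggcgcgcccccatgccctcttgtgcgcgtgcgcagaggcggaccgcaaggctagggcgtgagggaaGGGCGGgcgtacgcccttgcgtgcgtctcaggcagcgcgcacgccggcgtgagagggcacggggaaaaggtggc
RAB31: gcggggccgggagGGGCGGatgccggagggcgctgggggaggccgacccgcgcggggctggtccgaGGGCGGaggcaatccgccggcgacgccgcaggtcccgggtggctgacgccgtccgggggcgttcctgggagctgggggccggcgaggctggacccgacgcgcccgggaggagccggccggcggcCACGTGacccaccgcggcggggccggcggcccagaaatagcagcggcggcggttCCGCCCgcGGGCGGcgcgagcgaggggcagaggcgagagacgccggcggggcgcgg
RAB5A: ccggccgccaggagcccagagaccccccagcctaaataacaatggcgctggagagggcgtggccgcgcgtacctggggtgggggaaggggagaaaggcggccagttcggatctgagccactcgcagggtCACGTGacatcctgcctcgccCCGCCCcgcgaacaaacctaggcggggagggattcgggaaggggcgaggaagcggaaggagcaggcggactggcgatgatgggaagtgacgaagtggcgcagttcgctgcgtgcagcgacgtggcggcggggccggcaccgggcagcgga
RAB39A: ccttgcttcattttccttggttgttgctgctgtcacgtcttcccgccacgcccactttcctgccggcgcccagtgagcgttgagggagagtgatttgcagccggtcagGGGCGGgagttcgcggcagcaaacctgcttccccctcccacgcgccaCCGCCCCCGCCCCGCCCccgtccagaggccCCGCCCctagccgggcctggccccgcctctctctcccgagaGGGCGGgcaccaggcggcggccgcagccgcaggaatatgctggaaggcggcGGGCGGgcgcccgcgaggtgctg
RAB11A: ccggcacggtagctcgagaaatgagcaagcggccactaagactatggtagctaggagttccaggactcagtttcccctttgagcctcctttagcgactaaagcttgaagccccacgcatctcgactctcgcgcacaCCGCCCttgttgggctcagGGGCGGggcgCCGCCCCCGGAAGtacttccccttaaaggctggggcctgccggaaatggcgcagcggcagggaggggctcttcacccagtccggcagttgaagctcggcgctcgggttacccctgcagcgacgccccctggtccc
RAB27B: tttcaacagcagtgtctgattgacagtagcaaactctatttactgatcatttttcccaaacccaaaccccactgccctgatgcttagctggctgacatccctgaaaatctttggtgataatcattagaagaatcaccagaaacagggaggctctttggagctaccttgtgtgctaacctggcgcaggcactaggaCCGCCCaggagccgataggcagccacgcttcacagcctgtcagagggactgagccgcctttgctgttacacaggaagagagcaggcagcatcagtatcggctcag

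The *RAB31* promoter held 52 CpG sites, the most of any RAB promoter measured, with 4 matches to GGGCGG and 1 E-box. That of *RAB27B* held 6 CpG sites and a single GGGCGG match. The MP2_HDAC1_OE peaks covered all 300 bases at *RAB11A*, 86 at *RAB5A*, 39 at *RAB31* and 36 at *RAB10*, and MP2_NTC peaks covered none of the bases of these 4 promoters. At *RAB39A* the MP2_NTC peak covered 14 bases and MP2_HDAC1_OE none, and no peak of either list reached the *RAB27B* promoter.

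Peaks over the 300-base promoters themselves were counted in the same way for the 50 RAB genes and for the 15843 protein-coding genes with an entry. Peaks of both lists covered part of the promoter at 15 RAB genes (30%, against 25.0% of all genes). A peak of MP2_HDAC1_OE and none of MP2_NTC reached it at 7 genes (14%, against 8.71%), namely *RAB4A*, *RAB5A*, *RAB5C*, *RAB10*, *RAB11A*, *RAB23* and *RAB31*. The opposite held at 5 genes (10%, against 8.56%), namely *RAB2B*, *RAB5B*, *RAB6A*, *RAB30* and *RAB39A*. No peak reached the promoter at 23 genes (46%, against 57.7%), among them *RAB7A*, whose strong peaks began just downstream. By role, the 7 genes covered in MP2_HDAC1_OE alone were of early endosomes (*RAB5A*, *RAB5C*, *RAB31*), recycling and polarised traffic (*RAB4A*, *RAB10*, *RAB11A*) and cilium and others (*RAB23*). *RAB5B*, the remaining *RAB5* paralog, was covered in MP2_NTC alone. At *RAB4A*, *RAB5C*, *RAB23*, *RAB2B*, *RAB5B*, *RAB6A* and *RAB30*, however, the strongest peaks of the lists overlapped at the 5′ end. There, coverage by 1 list alone reflects where the edges of overlapping peaks fell.

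Rabs of the ER and Golgi form the largest group. Of its 18 genes 11 had a region at an end, 8 of them a shared one, 2 had a region unique to MP2_HDAC1_OE and 3 one unique to MP2_NTC. For this and the following groups, the shares over all protein-coding genes were 48.5% for any region, 36.0% for a shared one, 12.1% for one unique to MP2_HDAC1_OE and 10.4% for one unique to MP2_NTC, and each group holds few genes. *RAB1A* and *RAB1B*, the paralogs that carry cargo from the ER to the Golgi, were marked in both lines at neighbouring positions that did not overlap. At *RAB1A* the MP2_HDAC1_OE region (chr2:65129114-65130336) had a highest signal of 34.5 and ranked at 26.7, and the MP2_NTC region (chr2:65130653-65131472) had a signal of 55.7 and ranked at 60.4. The regions were 316 bp apart. At *RAB1B* the MP2_HDAC1_OE peak (chr11:66267438-66268257) lay upstream of the 5′ end with a signal of 59.5 and a rank of 71.2. The MP2_NTC peak (chr11:66268882-66269154) lay inside the gene with a signal of 44.4 and a rank of 41.0. A gap of 624 bp separated them, and both also fell at an end of *KLC2*, a kinesin light chain gene. The order of the ranks was thus opposite at these paralogs.

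*RAB2A* and *RAB2B*, Golgi Rabs, had shared regions. *RAB2A* ranked at 86.7 in MP2_HDAC1_OE and 82.7 in MP2_NTC, and *RAB2B* at its 5′ end at 87.3 and 64.5, a difference of 22.9 percentile points. *RAB2B* also had a shared region at its 3′ end, which belonged to the neighbouring gene *CHD8* as well, with ranks of 85.4 and 81.1. *RAB18*, a Rab of the ER and lipid droplets, ranked at 71.5 in MP2_HDAC1_OE and 51.3 in MP2_NTC. *RAB30*, a Golgi Rab, went the other way, with 57.7 in MP2_HDAC1_OE and 80.6 in MP2_NTC. At *RAB30* a narrow MP2_NTC peak with its summit at -362 bp from the 5′ end (negative is upstream) carried the higher rank, and the broader MP2_NTC peak ranked at 26.9. *RAB34*, a Golgi and cilium Rab, had 2 shared regions, in opposite order. The one inside the 5′ end ranked at 86.8 in MP2_HDAC1_OE and 93.8 in MP2_NTC, and the upstream one, also at an end of *RPL23A*, at 87.0 and 79.6. *RAB6A*, which drives traffic from the Golgi back to the ER, ranked at 59.5 and 67.5, *RAB36* at 55.9 and 61.3, and *RAB43* at 83.6 and 72.7.

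*RAB39A*, linked to phagosome and autophagy traffic, had 1 peak in MP2_NTC (chr11:107928484-107929303), with a signal of 52.6, a rank of 55.5 and its summit 446 bp inside the gene. The nearest peak of MP2_HDAC1_OE was 68721 bp away. Its paralog *RAB39B* had no region in either list. Of the *RAB33* pair, Golgi Rabs with a part in autophagy, neither gene had a region at an end as annotated, but both had shared regions inside. *RAB33A* also had an inside region of 3 peaks unique to MP2_NTC (chrX:130165262-130166457), at a rank of 70.3. It fell at an end of *AIFM1* as well, and the nearest MP2_HDAC1_OE peak was 43804 bp away. *RAB33B* had 2 shared regions next to each other. The first ranked at 34.9 in MP2_HDAC1_OE and 58.9 in MP2_NTC, the second at 71.4 and 47.6, so that the order of the lists changed between regions that lie side by side. Neither gene had a strand or start site in the promoter table, so that it was not known whether these regions lie at a promoter inside the gene.

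In the early endosome group 6 of 7 genes were marked at an end, 4 of them with a region unique to MP2_HDAC1_OE, 1 with a region unique to MP2_NTC and 4 with a shared one, beside 48.5%, 12.1%, 10.4% and 36.0% of all protein-coding genes. *RAB5A*, *RAB5B* and *RAB5C* drive the fusion of early endosomes. *RAB5A* had a single MP2_HDAC1_OE peak (chr3:19946113-19946932) with a signal of 47.7, a rank of 52.3 and its summit at -574 bp from the 5′ end. No MP2_NTC peak lay within 101814 bp, and the peak also fell at an end of *EFHB*, the neighbouring gene. *RAB5B* had a shared region over its 5′ end with ranks of 59.8 and 42.6, and an MP2_HDAC1_OE peak 634 bp from the nearest MP2_NTC peak, at a rank of 43.1. Both of these 5′ regions also fell at an end of *CDK2*. An MP2_NTC region of 3 peaks at a rank of 29.3 lay at the 3′ end of *RAB5B*, shared with *SUOX*. *RAB5C* had a shared region that ranked at 84.9 and 69.1 and also fell at an end of *KCNH4*. In each *RAB5* gene the strongest peak at an end therefore ranked higher in MP2_HDAC1_OE or was present in that list alone.

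*RAB31*, a relative of *RAB22A* that acts between the Golgi and endosomes, was marked in MP2_HDAC1_OE alone. Its 5′ region (chr18:9708312-9709335) held 2 peaks with ranks of 27.8 and 7.75, and a further peak 33.5 kb inside the gene ranked at 58.2. The nearest MP2_NTC peak was 64541 bp from the 5′ region. *RAB22A*, an endosomal Rab, had a shared region over its 5′ end at ranks of 82.5 in MP2_HDAC1_OE and 31.1 in MP2_NTC, a difference of 51.5 points. It also had a weak upstream MP2_HDAC1_OE peak at a rank of 14.6, 278 bp from the MP2_NTC peak. *RAB21*, known for integrin traffic, ranked at 72.8 and 80.7, and *RAB20* had no region.

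**Figure D2:**
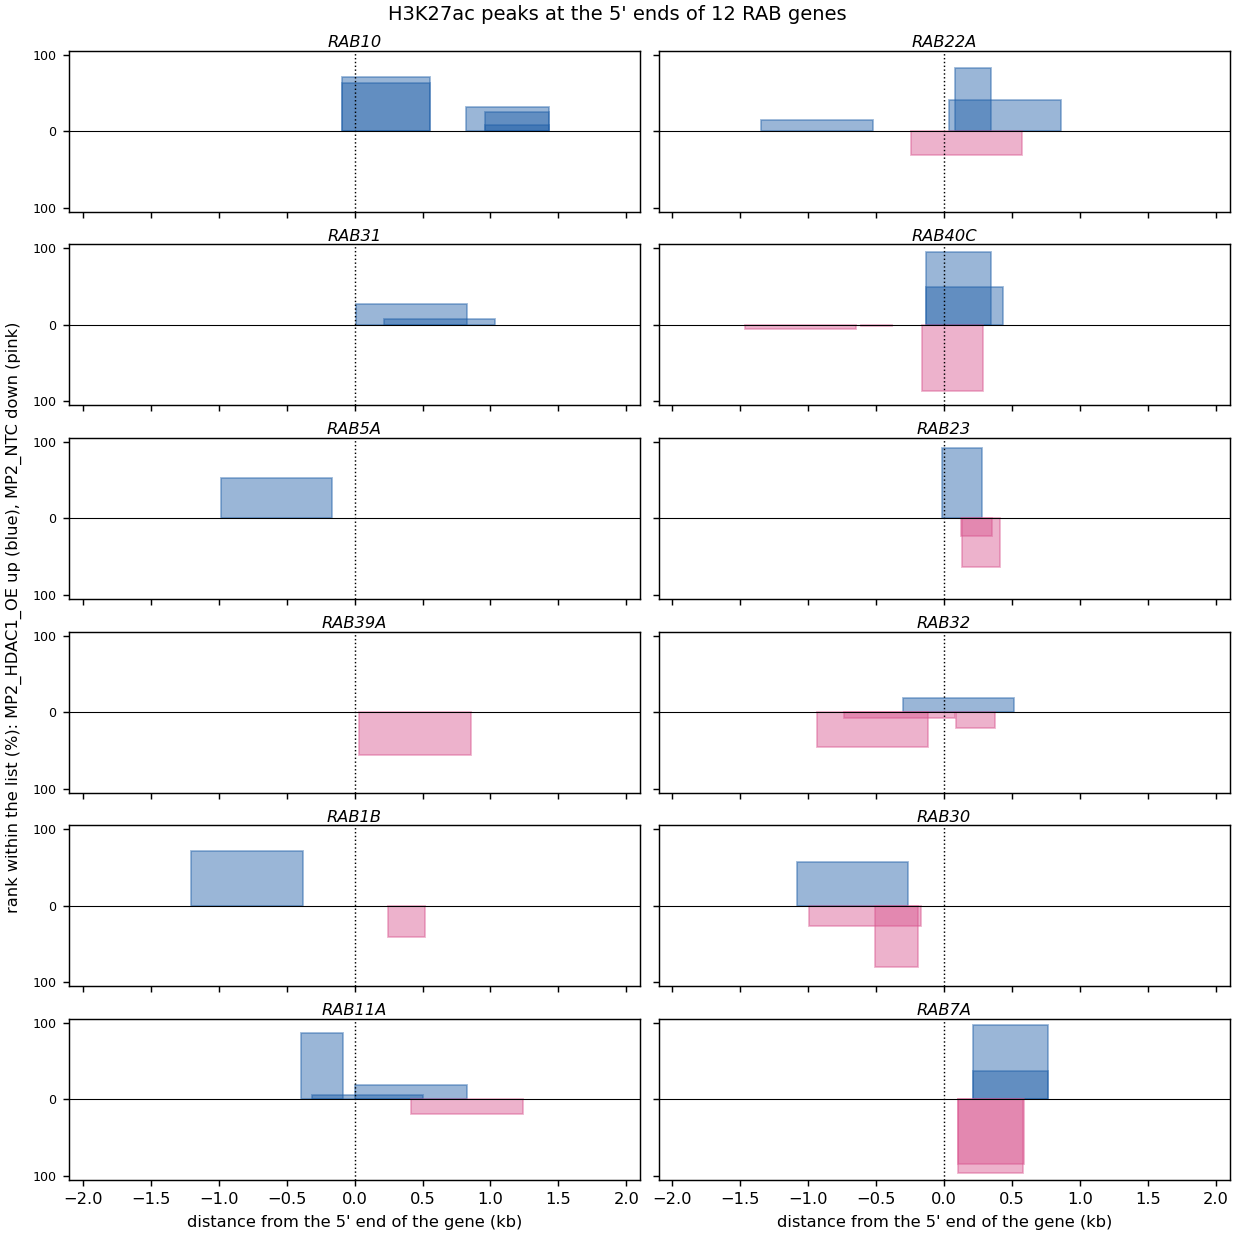
H3K27ac peaks at the 5′ ends of 12 RAB genes, drawn along the strand of each gene with distance from its 5′ end in kb. Blue boxes above the line are peaks of MP2_HDAC1_OE, pink boxes below it peaks of MP2_NTC, each as wide as the peak and as tall as its rank in its own list. Peaks of 1 list can overlap because the lists give several summits in a region. *RAB10*, *RAB31* and *RAB5A* have boxes above the line alone and *RAB39A* below it alone, and at *RAB1B* the boxes of the lists stand apart.

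Recycling and polarised traffic was the second large group, with 10 of 14 genes marked at an end and 8 with a shared region. *RAB11A* and *RAB11B* define the recycling endosome. *RAB11A* had 3 MP2_HDAC1_OE peaks, with signals of 75.9, 16.1 and 27.1, and 1 MP2_NTC peak with a signal of 30.3. The highest ranked at 86.1 in MP2_HDAC1_OE against 19.0 in MP2_NTC, a difference of 67.1 points and the largest of any RAB gene. The strongest MP2_HDAC1_OE peak (chr15:65869097-65869404) was a narrow one of 308 bp with its summit at -225 bp from the 5′ end, and it did not overlap the MP2_NTC peak (chr15:65869908-65870727). The MP2_HDAC1_OE peaks that did overlap it ranked at 18.3 and 5.35, next to 19.0 in MP2_NTC. The difference at *RAB11A* thus came from an additional peak upstream of the start site and not from a higher rank at the same position. Of the 34 shared regions at ends of RAB genes this was the only one whose strongest peaks did not overlap. *RAB11B* ranked at 95.8 and 79.3, with a further MP2_NTC peak 411 bp downstream at a rank of 40.1. A peak unique to MP2_HDAC1_OE at a rank of 57.1 lay further inside the gene, 1105 bp from the nearest MP2_NTC peak.

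*RAB10*, which acts in exocytosis and in the delivery of glucose transporters, had 2 regions in MP2_HDAC1_OE and none in MP2_NTC. The first (chr2:26033196-26033838) held 2 summits with ranks of 70.4 and 63.5, and the second (chr2:26034103-26034717) held 3 with ranks of 32.3, 25.2 and 7.76. The listed start site, 26034084, falls between them, and the nearest MP2_NTC peak was 41228 bp from the first. *RAB8A*, a close relative in exocytosis, had a shared region with ranks of 90.4 and 83.6. Its paralog *RAB8B* had none. *RAB4A* and *RAB4B* carry the fast route of recycling to the surface. *RAB4A* ranked at 67.8 in MP2_HDAC1_OE and 38.9 in MP2_NTC and *RAB4B* at 80.6 and 94.3 at its 5′ end, so that these paralogs differed in opposite directions at their 5′ ends, by 28.9 and -13.6 points. The 5′ region of *RAB4B* also lay at an end of *MIA*. At the 3′ end of *RAB4B*, near *EGLN2*, a shared region ranked at 76.4 and 65.0, higher in MP2_HDAC1_OE as at *RAB4A*.

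*RAB12* had 2 overlapping MP2_NTC peaks (chr18:8609512-8610545) with ranks of 35.5 and 21.6, and the nearest MP2_HDAC1_OE peak was 93925 bp away. *RAB14*, which acts between the Golgi and endosomes, ranked at 36.0 in MP2_HDAC1_OE and 56.4 in MP2_NTC. *RAB13*, a Rab of tight junctions, had the highest rank of any RAB gene in MP2_NTC, 99.5, with 96.6 in MP2_HDAC1_OE. That region also fell at an end of *NUP210L* and of *RPS27*, a ribosomal protein gene. The start site that RefSeq lists for *RAB13* lay further inside, under a second shared region (chr1:153985185-153986982) with ranks of 89.5 in MP2_HDAC1_OE and 72.8 in MP2_NTC. The order of the lists was therefore opposite between the annotated end and the listed start site. *RAB35*, which acts in recycling from the plasma membrane, had the widest region, 2292 bp, with low ranks of 24.8 and 22.6. *RAB17*, an epithelial Rab, had a shared region inside the gene that ranked at 67.6 and 28.7. *RAB25*, an epithelial relative of *RAB11A*, had no region, like *RAB15*.

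Of the 8 genes of late endosomes, lysosomes and related organelles, 4 were marked, each by a shared region and none by a unique one. *RAB7A*, the main Rab of late endosomes and lysosomes, had signals of 101.6 and 40.1 in MP2_HDAC1_OE and of 111.6 and 79.9 in MP2_NTC. The strongest peaks ranked at 96.4 and 96.2, and differed by 0.23 points, the smallest difference of any RAB gene with a shared region. *RAB7B* had no region. *RAB9A*, which returns receptors from late endosomes to the Golgi, ranked at 78.7 and 65.4, and *RAB9B* had no region. *RAB24*, linked to autophagy, had the highest rank of any RAB gene in MP2_HDAC1_OE, 96.7, with 92.0 in MP2_NTC, in a region that also served the ends of *MXD3* and *PRELID1*. *RAB32*, a Rab of lysosome-related organelles and mitochondria, had the largest difference towards MP2_NTC among the genes with a shared region. Its MP2_HDAC1_OE peak had a signal of 26.9, a rank of 18.1 and its summit 107 bp inside the gene. Its 3 MP2_NTC peaks had signals of 47.2, 19.2 and 31.9, the strongest at a rank of 46.2, a difference of -28.1 points. That strongest MP2_NTC peak overlapped the MP2_HDAC1_OE peak but had its summit upstream, at -527 bp. The MP2_NTC peak with its summit 242 bp inside the gene ranked at 20.5, next to 18.1 in MP2_HDAC1_OE. Its relatives *RAB38* and *RAB29* had no region, and the nearest peak to *RAB38* was 765 kb away.

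Regulated secretion held 5 marked genes of 8. *RAB3A* and *RAB3D*, Rabs of secretory vesicles, had shared regions with ranks of 92.3 and 81.9 and of 62.8 and 40.3, in the order MP2_HDAC1_OE and MP2_NTC. *RAB3B* and *RAB3C* had no region. *RAB26*, a Rab of secretory granules, had all 3 kinds of region in a row: a peak unique to MP2_NTC at a rank of 34.5, 2 peaks unique to MP2_HDAC1_OE, the stronger at 47.3, and a shared region at 49.1 and 59.4. All 3 also fell at an end of *TRAF7*. *RAB37*, another Rab of secretory granules, had 2 MP2_NTC peaks (chr17:74748415-74749436) at ranks of 44.4 and 7.43, with the nearest MP2_HDAC1_OE peak 122061 bp away. They also fell at an end of *NHERF1*, and without a strand it was not known at which end of *RAB37* they lay.

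*RAB27A* and *RAB27B*, which dock secretory granules and release exosomes, differed in where they were marked. *RAB27A* had a shared region at its 5′ end, with signals of 68.4 and 75.2 and ranks of 80.4 and 81.4. *RAB27B* had no region at either end and 3 inside the gene. The first, 58.5 kb from the 5′ end (chr18:54776317-54777940), was shared, with 3 MP2_HDAC1_OE peaks at ranks of 46.1, 78.5 and 9.32 and 1 MP2_NTC peak at 32.3. The second, at 61.8 kb (chr18:54779625-54780688), was unique to MP2_HDAC1_OE, with ranks of 40.7 and 10.4. The third, at 109.8 kb (chr18:54827696-54828997), was shared, and its strongest peaks ranked at 28.3 in MP2_HDAC1_OE and 33.2 in MP2_NTC. The promoter printed above had no peak of either list.

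The last group, of cilium Rabs, ubiquitin ligase adaptors and others, had 3 marked genes of 7. *RAB23*, an antagonist of Hedgehog signalling, had a narrow MP2_HDAC1_OE peak of 295 bp with a signal of 87.6 and a rank of 92.4. Its MP2_NTC peaks had signals of 58.1 and 34.5, the stronger at a rank of 63.7, and the region also fell at an end of *PRIM2*. *RAB28*, a cilium Rab, ranked at 91.1 and 85.7. *RAB40C*, which joins a ubiquitin ligase through a SOCS box, ranked at 95.7 and 86.6 in its shared region, and had 2 weak upstream MP2_NTC peaks at 4.95 and 1.45. *RAB40A*, *RAB40B*, *RAB42* and *RAB44* had no region.

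**Figure D3:**
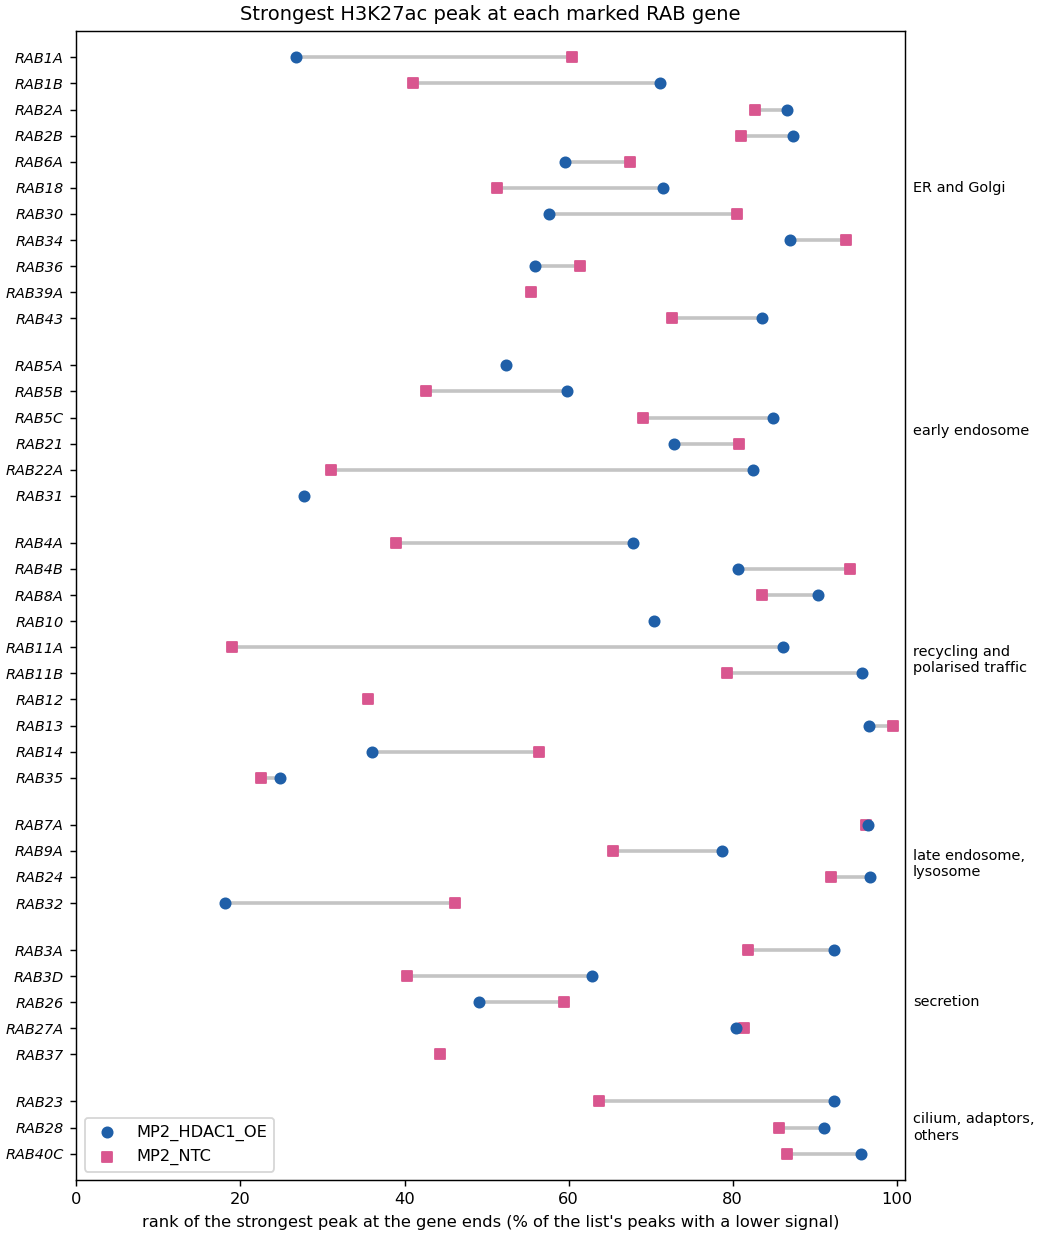
Rank of the strongest H3K27ac peak at an end of each of the 39 marked RAB genes, in MP2_HDAC1_OE (blue circles) and MP2_NTC (pink squares), grouped by the role of the protein. A grey line joins the lists where both have a peak at the gene. *RAB11A* and *RAB22A* have the longest lines towards MP2_HDAC1_OE, *RAB1A* and *RAB32* the longest towards MP2_NTC, and 6 genes have 1 symbol alone.

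In all, 33 RAB genes had peaks of both lists at an end, 3 had them in MP2_HDAC1_OE alone, 3 in MP2_NTC alone, 4 had a region inside the gene only (*RAB17*, *RAB27B*, *RAB33A* and *RAB33B*) and 20 had no region. Those without any region were *RAB3B*, *RAB3C*, *RAB6B*, *RAB6C*, *RAB6D*, *RAB7B*, *RAB8B*, *RAB9B*, *RAB15*, *RAB19*, *RAB20*, *RAB25*, *RAB29*, *RAB38*, *RAB39B*, *RAB40A*, *RAB40B*, *RAB41*, *RAB42* and *RAB44*. *RAB6C* and *RAB6D* are close copies of other *RAB6* sequence, to which short reads may not map uniquely. Just outside the window, the nearest peak lay 2.69 kb from an end of *RAB17*, 4.99 kb from *RAB41*, 5.61 kb from *RAB19*, 5.88 kb from *RAB40B* and 6.00 kb from *RAB25*. Of the 14 families of 2 or more genes with the same number, 5 had every member marked at an end (numbers 1, 2, 4, 5 and 11), 8 had marked and unmarked members, and the *RAB33* pair had none. *RAB6A* was the only marked gene of 4 in its family and *RAB40C* the only one of 3.

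Among the 31 RAB genes with a shared region at an end, the strongest peak ranked higher in MP2_HDAC1_OE at 20 and higher in MP2_NTC at 11. The share higher in MP2_HDAC1_OE was 64.5%, against 54.3% of all protein-coding genes with a shared region at an end. The median difference was 5.41 percentile points, against 0.96 over the 7220 protein-coding genes with such a region, whose middle 90% ran from -35.6 to 39.9. A difference of at least 20 points towards MP2_HDAC1_OE was present at 7 RAB genes (22.6%, against 17.2% of all), which were *RAB11A*, *RAB22A*, *RAB4A*, *RAB23*, *RAB2B*, *RAB3D* and *RAB18*. Towards MP2_NTC it was present at 3 (9.68%, against 13.3%), *RAB32*, *RAB30* and *RAB14*. *RAB18*, at 20.2, and *RAB14*, at -20.3, lay just inside this limit and *RAB5B*, at 17.2, just outside it. *RAB4B*, at -13.6, and *RAB26*, at -10.3, followed on the side of MP2_NTC. When the signals of all peaks in a region were summed before ranking, the median difference over the RAB genes turned to -0.21, and 7 genes passed 20 points towards MP2_NTC. *RAB23* turned to -2.35, and *RAB4A* (13.6), *RAB3D* (9.75), *RAB2B* (8.48) and *RAB14* (-12.9) no longer reached 20 points. The count towards MP2_HDAC1_OE stayed at 7, but partly with other genes. *RAB11A*, *RAB22A* and *RAB18* remained at 65.7, 58.0 and 38.7, and *RAB30* and *RAB32* reached -44.2 and -52.1 in that setting. With the strongest peak at either end of the gene, *RAB2B* fell to 6.24. The positive median over the family was thus present for the strongest peaks and not for the summed signal.

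**Figure D4:**
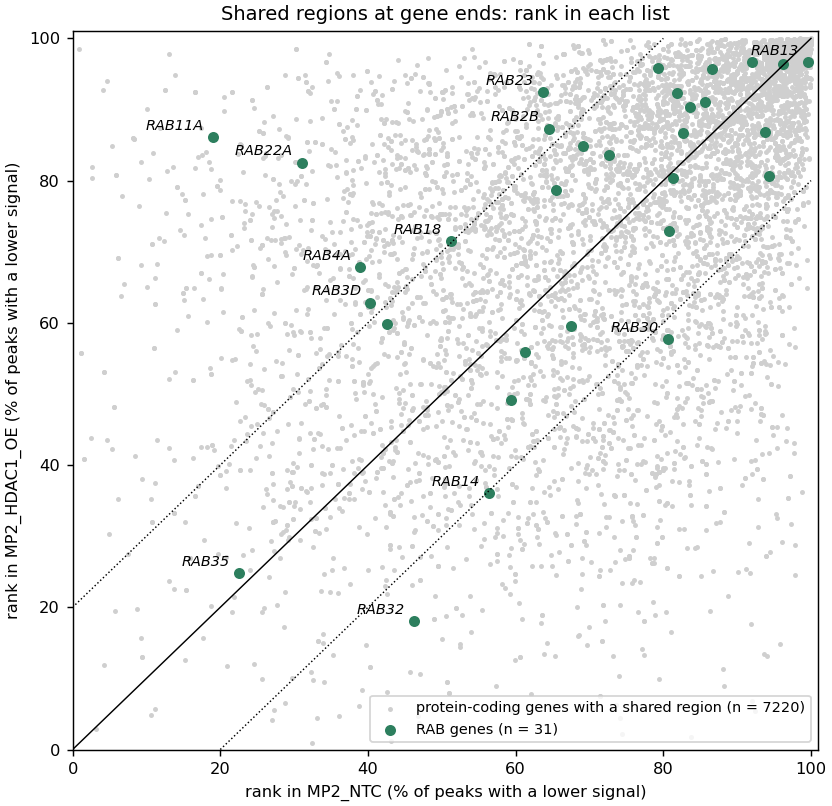
Rank of the strongest peak in a shared region at a gene end, in MP2_NTC (horizontal) and MP2_HDAC1_OE (vertical), for 31 RAB genes (green) and 7220 protein-coding genes (grey). The solid line marks equal ranks and the dotted lines a difference of 20 percentile points; 7 RAB genes lie above the upper dotted line, with *RAB11A* and *RAB22A* farthest from it, and 3 below the lower one.

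The strongest RAB genes were partly the same in both lists. In MP2_HDAC1_OE the 5 highest ranks were those of *RAB24* (96.7), *RAB13* (96.6), *RAB7A* (96.4), *RAB11B* (95.8) and *RAB40C* (95.7). In MP2_NTC they were those of *RAB13* (99.5), *RAB7A* (96.2), *RAB4B* (94.3), *RAB34* (93.8) and *RAB24* (92.0), so that *RAB7A*, *RAB13* and *RAB24* were in both. The median of the highest rank was 79.5 over the 36 RAB genes with an MP2_HDAC1_OE peak at an end and 66.5 over the 36 with an MP2_NTC peak, sets that have 33 genes in common. Over all protein-coding genes with such a peak it was 76.6 and 74.7.

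The regions sat at starts of genes. Of 53 regions at ends of RAB genes, 34 were shared, 9 unique to MP2_HDAC1_OE and 10 unique to MP2_NTC. At genes with a known strand 41 of 44 lay at the 5′ end and 3 at the 3′ end, and the latter, at *RAB2B*, *RAB4B* and *RAB5B*, were each also at an end of a neighbouring gene. The 114 summits at 5′ ends had a median position 175.5 bp inside the gene, with 76 inside and 38 upstream. The median was 175 bp in MP2_HDAC1_OE and 176 bp in MP2_NTC. At 21 of the 53 regions an end of another protein-coding gene lay in reach as well, so that the mark cannot be assigned to the RAB gene alone. Of the 19 unique regions, 11 (57.9%) had a peak of the other list within 1 kb, against 36.5% of the 3824 unique regions at ends of all protein-coding genes. Those without one were the regions of *RAB5A*, *RAB10*, *RAB12*, *RAB31*, *RAB37* and *RAB39A* and the 3′ region of *RAB5B*.

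CpG sites were more frequent in the promoters of marked than of unmarked RAB genes, as they were over all genes. The 33 promoters of genes with a region at an end held a median of 30 CpG sites (12 to 52), and the 17 of genes without one a median of 12 (2 to 38). Over all protein-coding genes the medians were 27 and 11. The ranges overlapped, and among the unmarked genes *RAB8B* (38), *RAB40B* (34) and *RAB9B* (31) lay above the median of the marked ones. GGGCGG was present in 90.9% of the marked and 52.9% of the unmarked RAB promoters, against 71.4% and 45.0% over all genes. TATAAA, the TATA box, was present in 0 of 33 and in 4 of 17, those of *RAB6C*, *RAB6D*, *RAB7B* and *RAB40A*, against 5.17% and 14.3%. Each motif was searched on both strands and motifs could overlap. Over all 15843 promoters GGGCGG was present in 58.5%, CCAAT in 36.4%, TGANTCA in 5.75%, TGACGTCA in 2.59%, CACGTG in 8.88%, CCGGAAG in 14.2% and TATAAA in 9.63%. In the 50 RAB promoters these shares were 78%, 26%, 6%, 2%, 12%, 18% and 8%, in the same order.

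**Figure D5:**
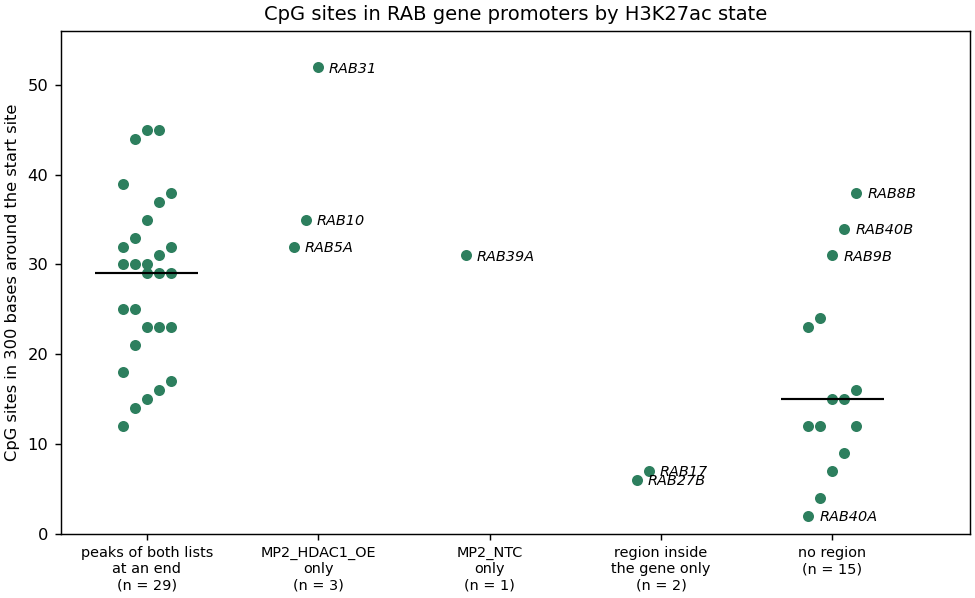
CpG sites in the 300-base promoter of 50 RAB genes, grouped by where peaks were found, with 1 point per gene and a black line at the median of groups of more than 3. Genes with peaks of both lists spread from 12 to 45, *RAB31* has 52, and most genes without a region lie at 24 or less except *RAB8B*, *RAB40B* and *RAB9B*.

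Genes of the Rab cycle, the proteins that modify, load, switch off or read Rab GTPases, were taken from a list of 108 genes. Of these 78 (72.2%) had a region at an end, 55 (50.9%) a shared one, 22 (20.4%) one unique to MP2_HDAC1_OE and 14 (13.0%) one unique to MP2_NTC. Peaks of MP2_HDAC1_OE alone marked 14 genes (13.0%) and of MP2_NTC alone 7 (6.48%). By comparison, the shares over all protein-coding genes given above were 48.5% for any region and 36.0% for a shared one. They were 12.1% and 10.4% for unique regions and 6.17% and 5.06% for genes marked in only 1 list. All 7 genes of prenylation and GDI, a small group, were marked, beside the 48.5% of all genes. *GDI2*, whose product extracts Rabs from membranes, had a shared region at 44.5 in MP2_HDAC1_OE and 90.0 in MP2_NTC, and beside it 2 unique to MP2_HDAC1_OE, of which the stronger ranked at 93.8. *RABGGTB*, a subunit of the enzyme that attaches the lipid anchor, had a shared region and one unique to MP2_HDAC1_OE, and *CHML*, a Rab escort protein gene, had one in MP2_NTC alone at a rank of 23.0.

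Of 28 exchange factor genes 22 were marked (78.6%, beside 48.5% of all protein-coding genes). Those with a region unique to MP2_HDAC1_OE (21.4%, beside 12.1% of all genes) were *MADD*, *DENND4A*, *DENND5A*, *RIN1*, *RIN2* and *RGP1*. Those with one unique to MP2_NTC (17.9%, beside 10.4%) were *DENND1A*, *DENND3*, *RIN1*, *RIC1* and *MON1B*. *RGP1* and *RIC1* encode the subunits of 1 exchange factor complex for RAB6A, and were each marked in 1 list alone, *RGP1* in MP2_HDAC1_OE at 56.2 and *RIC1* in MP2_NTC at 24.0. Of 35 genes of GTPase-activating proteins 24 were marked (68.6%) and 21 had a shared region (60%), beside 48.5% and 36.0% of all genes. Unique regions of MP2_HDAC1_OE were present at 2 of them (5.71%, beside 12.1%), *TBC1D5* and *TBC1D10B*. Those of MP2_NTC were present at 4 (11.4%, beside 10.4%), *TBC1D5*, *TBC1D14*, *EVI5L* and *SGSM2*. None of the 35 was marked in MP2_HDAC1_OE alone, beside 6.17% of all genes. In a group of 35 such a share is only a few genes.

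Effector genes were marked at 25 of 38, and 11 (28.9%) had a region unique to MP2_HDAC1_OE, beside 12.1% of all protein-coding genes. One unique to MP2_NTC was present at 4 (10.5%), beside 10.4% of all, and 48.5% of all genes had any region. In MP2_HDAC1_OE these were *RAB11FIP3*, *RABEP2*, *MICALL1*, *SYTL2*, *UNC13D*, *OCRL*, *APPL2*, *BICD1*, *FYCO1*, *RUFY1* and *RBSN*, and all but *MICALL1* and *RUFY1* had no MP2_NTC peak at an end. In MP2_NTC they were *RAB11FIP5*, *RABEP1*, *EEA1* and *MICALL1*. *RABEP2* ranked at 94.6 and *APPL2* at 70.4, and both encode proteins of early endosomes. *SYTL2* (40.9) and *UNC13D* (55.3) encode effectors of RAB27A, *RAB11FIP3* (25.0) one of RAB11, *FYCO1* (55.4) one of RAB7A and *RBSN* (41.4) one of RAB5. *EEA1*, the tether that RAB5 recruits to early endosomes, had a shared region at 18.1 in MP2_HDAC1_OE and 72.1 in MP2_NTC next to its unique one. *RABEP1*, the paralog of *RABEP2*, was marked in MP2_NTC alone at a rank of 62.6. Unique regions thus lay at effector genes of the same compartment in both lists.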

How the data were processed

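H3K27ac ChIP-sequencing of MP2_HDAC1_OE and MP2_NTC (2 H3K27ac and 2 control samples per line, 75 bp single-end reads) was processed by the authors with the ENCODE protocols. Per the submitters' processing notes, BWA 0.7.12, Picard 1.88 and SAMtools were used on hg38. The peak caller is not given in the sources used here. The authors deposited for each line 1 pooled list, the peaks that passed their test of reproducibility (IDR) between samples as the optimal set. Its signal, as deposited by the authors, is a positive value per peak on a scale that may differ between the lists. No read counts are in the lists, and depth per sample is therefore unknown, as is the precision it would give. With 1 list per line no value has an error across samples.

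Peaks were merged and placed at genes with Python 3.11.15, numpy 2.4.6 and pandas 2.3.3, and the steps were tested on simulated data. Gene positions came from RefSeq (GRCh38.p14), and strand, start sites and promoter sequences from a RefSeq table that held 50 of the 63 members. The build of the coordinates is that of the labels. The 63 members, their roles and the Rab cycle list were chosen with earlier results of these data known, and the count of peaks over promoters was added after the regions had been seen. Of 109 symbols listed for Rab cycle genes, 108 were in the table, and the symbol *ZFYVE20* was not. Named with values were all members with a unique region at an end, the 5 highest ranks per list, the 5 largest rank differences each way, families whose members differ, *RAB27B*, and Rab cycle genes with unique regions, of which 1 is not reported here. Other genes named were chosen after their values were seen. Alternatives covered the window, the threshold, the overlap that counts as shared and the rank measure.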

Additional observations from a re-analysis of the deposited data

How the results depend on the processing

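No paired analysis was possible because the 2 samples of a line enter its list together, which also meant that neither could be left out. Of 63 comparisons of 12 counts or medians with another setting, 53 stayed close (counts within 1.5 times), 9 moved further and 1 reversed. Sharing was the choice that moved most counts. With a reciprocal overlap of 50% peak by peak in place of merged regions, the RAB genes with a region unique to MP2_HDAC1_OE went from 8 to 19 and those unique to MP2_NTC from 9 to 23, and the Rab cycle genes from 22 to 48 and from 14 to 44. With regions merged across gaps of 0.5 kb, 5 RAB genes had a region unique to MP2_HDAC1_OE and 5 one unique to MP2_NTC. The latter were 5 in a window of 2 kb outside the gene end alone and 4 at the 5′ end alone, where the 13 genes without a strand were not counted. With summed signal the median rank difference reversed from 5.41 to -0.21, and 7 in place of 3 RAB genes ranked at least 20 points higher in MP2_NTC. The causes were not tested. Depth is unknown, so a missing peak is not evidence that the mark is absent.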
